A study of Mus musculus with 6 samples.

Results

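Osteoclast genes were examined in sorted osteocytes of mice without estrogen receptor alpha (ERα) and of their control littermates. The 9 genes are Mmp9, Ctsk, Acp5, Calcr, Tnfrsf11a, Itgb3, Nfatc1, Oscar and Atp6v0d2, out of 18193 genes on the array. They were chosen as well-known osteoclast genes, and every probe set that the platform annotation pairs with exactly 1 of them was taken, which gave 18 probe sets out of 45037. The knockout group holds 3 arrays from mice whose osteocytes lack ERα (ERαΔOcy/ΔOcy), and the control group holds 3 arrays from ERαflox/flox littermates, which the labels call WT. All mice carried the Dmp1-GFP reporter, in which the Dmp1 promoter drives green fluorescent protein, and all were female C57/BL6 mice of 10 to 12 days. Neither the Cre line that deleted the receptor nor the Cre status of the controls is stated in the labels. Calvariae freed of their sutures went through 6 digestions of 30 min, and fluorescent cells of fractions 4 to 6 were sorted; the gate took between 10% and 15% of the cells of reporter mice, against between 0.8% and 1.0% of the cells of mice without the reporter.

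Osteoclasts are the large multinucleated cells that dissolve bone. They form by fusion of monocyte and macrophage precursors when the cytokine RANKL binds its receptor RANK, which switches on the transcription factor NFATc1 and through it the genes for acid secretion, matrix digestion and attachment to bone. Osteocytes are buried in bone matrix, are not osteoclasts and are a main source of RANKL, and in lactating mice they were described to make Acp5, Ctsk and Atp6v0d2 themselves. A sorted osteocyte sample can therefore hold osteoclast transcripts from the osteocytes or from other cells carried through the gate. In such bulk RNA a change in the number of cells of a type and a change in RNA per cell cannot be told apart.

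The deposited values are 1 signal per probe set and array on a linear scale, with array medians between 20.2 and 28.6 in knockout and between 18.7 and 22.7 in control arrays. A log2 level below is log2(signal + 16) after quantile normalisation, so it understates folds of dim probe sets. Genes listed as osteocyte and osteoblast markers had high levels. Of the osteocyte list, Dmp1 had a mean log2 level of 12.55 in knockout and 12.85 in control arrays, and Phex 10.94 and 10.96. Dmp1 differed by -0.30 ± 0.10 with overlapping groups (knockout minus control, SE; limma, adjusted p = 0.410). Of the osteoblast list, Sparc had 13.77 in knockout and 13.84 in control arrays, and Col1a2 13.63 and 13.73. The targeted gene Esr1 has 3 probe sets that differed, with log2 differences of -0.20, -0.13 and -0.86 (knockout minus control), and only the dimmest, below the level filter, had groups that did not overlap. The position of these probe sets relative to the deleted part is not given, so Esr1 does not check the labels. Control replicate 2 stood apart: skeletal muscle markers summed to a signal of 221 on it, against 33326 and 39059 on the other control arrays and 4591 to 21958 on knockout arrays. Control replicate 1 stood apart in macrophage markers, which summed to 2955, against 10713 and 11537 on the other controls and 7447 to 9266 on knockout arrays. The labels call the arrays biological replicates while the protocol speaks of pooled tissue, so the p-values measure the spread between these arrays and not surely between mice.

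Mmp9 was 2.92-fold higher in the knockout arrays, while the log2 differences of Ctsk, Acp5, Calcr, Itgb3 and Atp6v0d2 lay between -0.07 and 0.11 and Nfatc1 lay 0.37 above control. No member passed the test. Each gene was represented by its brightest probe set, and 7 of the 9 genes lay above the level filter and entered the test of 10916 genes, Tnfrsf11a and Oscar being too dim. By limma 0 of the 7 members had an adjusted p under 0.05, in a comparison where 0% of all tested genes were called and 10.5% had an unadjusted p under 0.05. Knockout and control values did not overlap for 1 of the 7, Mmp9, which was higher, against 17% of all tested genes in either direction and 9.23% in that direction. Differences were above 0 for 5 of the 7 members, against 48.3% of all tested genes. The median difference of the 7 was 0.04, and that of all tested genes was -0.01. With every probe set tested on its own, 0% of 27023 were called and 0 of the 16 member probe sets above the filter passed.

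**Figure D1:**
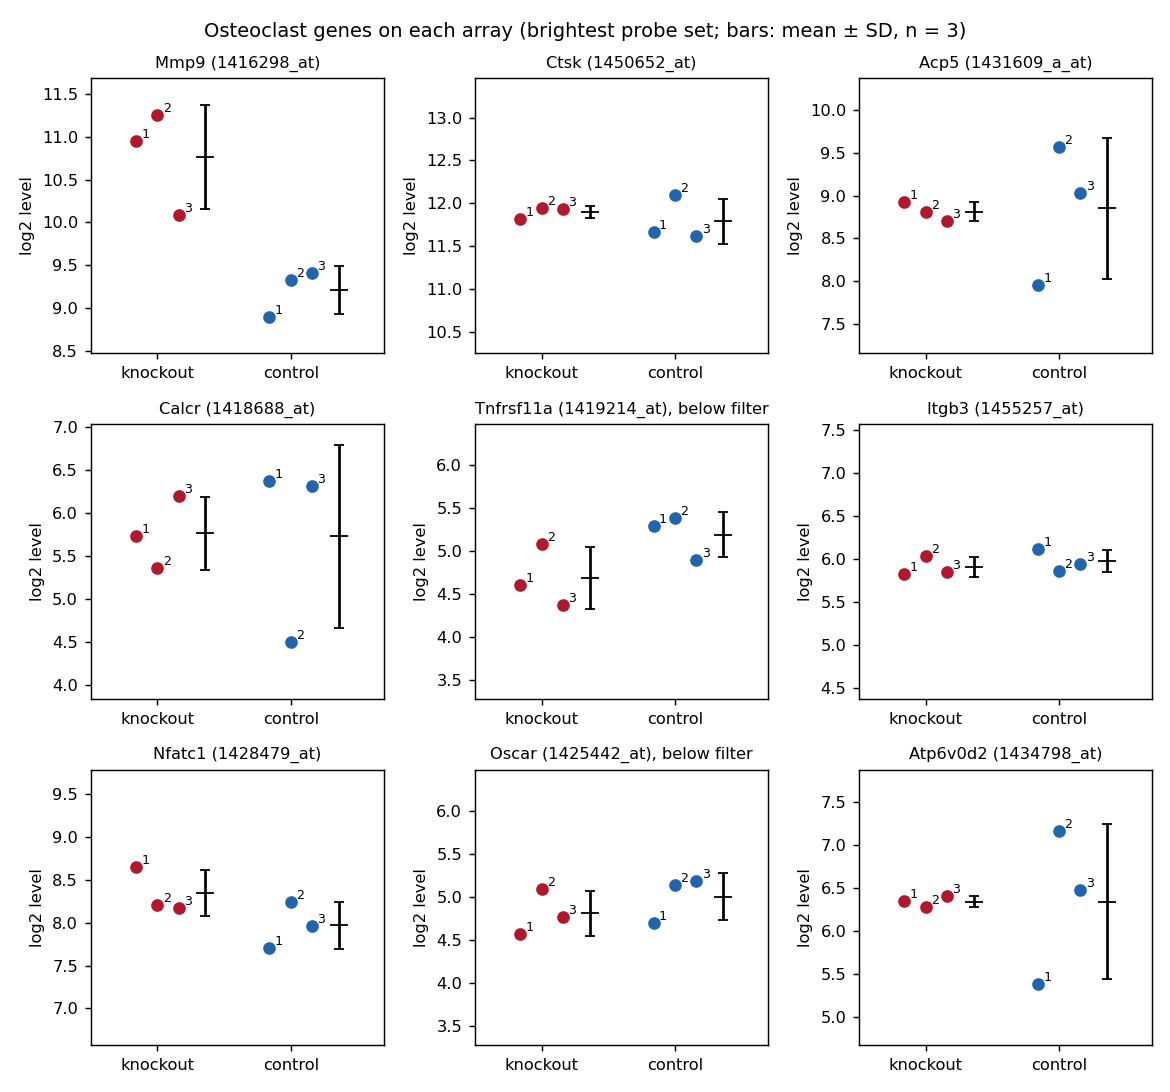
Log2 level (y axis, log2(signal + 16) after quantile normalisation; each panel spans the same range of levels) of each osteoclast gene on the 3 knockout arrays (red) and the 3 control arrays (blue), with replicate numbers beside the points and the mean ± SD as black bars. Mmp9 is the 1 gene whose knockout points all lie above its control points, and Acp5, Calcr and Atp6v0d2 spread widely among the controls.

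Mmp9 encodes gelatinase B, a secreted metalloprotease that osteoclasts use on collagen fragments and that also clears cartilage at growth plates; neutrophils store it in granules. Its brighter probe set (1416298_at) had deposited signals of 1915, 2365 and 1345 in knockout replicates 1, 2 and 3, against 481, 590 and 580 in control replicates 1, 2 and 3. The second probe set (1448291_at) had 673, 860 and 685 in knockout replicates 1, 2 and 3, against 238, 252 and 217 in the controls. On both, every knockout array lay above every control array, and knockout replicate 2 was the highest. The share of tested probe sets whose groups separated with higher knockout values was 9.41%, and 3 of the 16 tested member probe sets did so, these 2 and 1 of Nfatc1.

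The log2 level of the brighter Mmp9 probe set averaged 10.76 ± 0.60 in knockout and 9.22 ± 0.28 in control arrays (SD, n = 3 each). The difference was 1.55 with a 95% interval from 0.87 to 2.22 (limma, adjusted p = 0.203), so it did not pass although its unadjusted p was the 44th smallest of 10916. The second probe set differed by 1.44 with an interval from 1.04 to 1.84 (limma, adjusted p = 0.0799, over all probe sets), which is 2.71-fold. With the deposited scaling, which moves the median of all tested genes to 0.14, the brighter probe set differed by 1.71 and passed (limma, adjusted p = 0.000113), among 0.275% of tested genes called higher, 30 genes, and none called lower. Without control replicate 2 its difference was 1.61 (limma, adjusted p = 0.0525), and without knockout replicate 2 it was 1.30 (limma, adjusted p = 0.659). The second probe set passed at 1.58 with the deposited scaling, at 1.48 with median centring and at 1.50 without control replicate 2 (limma, adjusted p = 0.000260, 0.0405 and 0.0108).

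**Figure D2:**
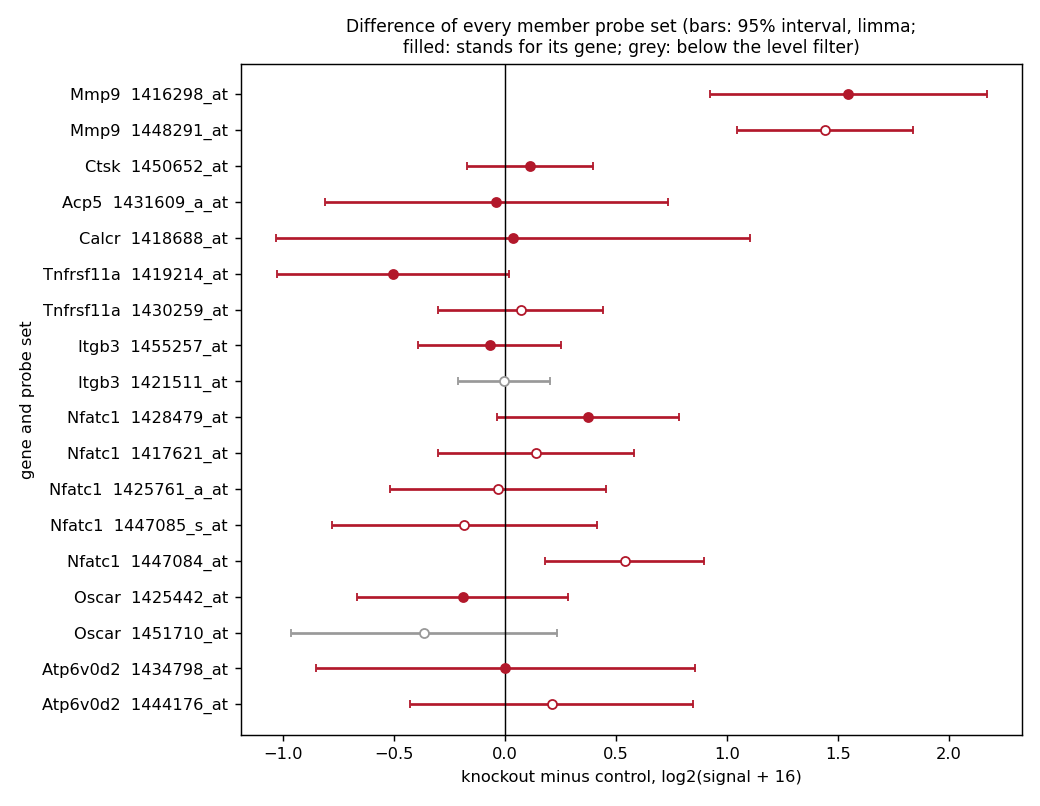
Knockout minus control difference (x axis, log2(signal + 16)) of all 18 member probe sets with its 95% interval from limma; filled points stand for their gene, open points are further probe sets, and grey marks the 2 probe sets below the level filter. The intervals of both Mmp9 probe sets and of 1 Nfatc1 probe set lie above 0.

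Markers of other cells that can make Mmp9 were read on the same arrays. Of 15 neutrophil markers 13 had a probe set and 7 were tested, 6 lower and 1 higher, their median being -0.17, and their summed signal ran from 850 to 1316 in knockout and from 852 to 1765 in control arrays. The calcium-binding S100a8 and S100a9 differed by -0.16 ± 0.27 and -0.14 ± 0.25, and the granule gene Ngp by -0.37 ± 0.16 (SE). The log2 levels of Ngp were separated only narrowly, with knockout replicate 1 at 7.511 and control replicate 3 at 7.514, and its signals overlapped. The granule collagenase Mmp8, below the level filter, had higher knockout values that did not overlap the controls, with signals of 10.1, 8.3 and 14.4 in knockout and 3.6, 7.0 and 6.6 in control arrays. Macrophage markers had a median of -0.07 over 12 tested genes. Of 14 chondrocyte markers 12 were higher and 2 lower; groups were separated for 10 higher genes (71.4%) and 1 lower gene (7.14%), against 9.23% and 7.76% of all tested genes. The list's 2 genes with the highest level were the lower ones, the fibrillar collagen genes Col11a1 at -0.05 ± 0.14 and Col11a2 at -0.41 ± 0.11 with separated groups (SE). The list's summed signal ran from 10008 to 12909 in knockout and from 6267 to 9514 in control arrays. None of the 14 was at 0 on all arrays. Endothelial markers had 6 of 9 tested genes above 0, against 48.3% of all tested genes, and a median of 0.12. The list's 2 genes with the highest level differed in direction, Esam at -0.69 ± 0.24 and Emcn at 0.20 ± 0.26 (SE; limma, adjusted p = 0.410 and 0.824). The log2 levels of Esam were separated, but its signals overlapped. The part of these cells in the Mmp9 difference was not tested.

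The tested genes whose level followed Mmp9 most closely over the 6 arrays, by the root mean square distance between levels centred on each gene's mean, were Acan at 0.29, Col9a3 at 0.30, Mia and Epyc at 0.32 and Shisa3 at 0.33 on the log2 scale. The first 4 are cartilage matrix or cartilage-secreted products, and Shisa3 encodes a membrane protein of the Shisa family. They differed between knockout and control by 1.44, 1.73, 1.06, 1.38 and 1.93, with adjusted p-values from 0.120 to 0.240 by limma. The distance spans both groups, so genes chosen as close to Mmp9 had to have a similar difference, and these values are no separate result. None of the other 6 tested osteoclast genes was among the 5 closest. Their smaller differences between the groups set them apart in the same measure.

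Centred on its own mean, Mmp9 lay at 0.95, 1.26 and 0.10 on knockout replicates 1, 2 and 3, against -1.09, -0.65 and -0.57 on control replicates 1, 2 and 3. The mean of the other 6 tested members lay at 0.07, -0.04 and 0.07 on the same knockout arrays, against -0.28, 0.09 and 0.08 on the controls. Averaged this way, the other members had their lowest value on control replicate 1, and their groups overlapped.

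Ctsk encodes cathepsin K, the acid cysteine protease that cuts collagen in the resorption pit. Its signals were 3573, 3836 and 4746 in knockout replicates 1, 2 and 3, against 3362, 4096 and 2663 in control replicates 1, 2 and 3. The groups overlapped: the signal of control replicate 2 lay above that of 2 knockout arrays, and its log2 level of 12.09 lay above every knockout array. The log2 level averaged 11.90 ± 0.07 in knockout and 11.79 ± 0.26 in control arrays (SD, n = 3 each), a difference of 0.11 with a 95% interval from -0.19 to 0.41 (limma, adjusted p = 0.797). The 5 genes closest to Ctsk over the 6 arrays were Hexdc, Sh3bp5, Pet100, Clasrp and 2010204K13Rik, at distances of 0.04 to 0.05. All 5 had overlapping groups like Ctsk, which a choice by distance over all 6 arrays favours.

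Acp5 encodes tartrate-resistant acid phosphatase, the enzyme whose stain defines osteoclasts in tissue. Its signals were 463, 415 and 506 in knockout replicates 1, 2 and 3, against 245, 697 and 441 in control replicates 1, 2 and 3. The 3 knockout arrays lay between the lowest and the highest control. The log2 difference was -0.04 with an interval from -0.87 to 0.79 (limma, adjusted p = 0.981). Its sign followed the control arrays: it was -0.49 without control replicate 1 and 0.32 without control replicate 2, and also lay just above 0 without knockout replicate 3 (0.02) or control replicate 3 (0.05).

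Atp6v0d2 encodes the d2 subunit of the proton pump that acidifies the resorption pit, a subunit also needed for fusion of osteoclast precursors. Its signals were 64.5, 57.6 and 88.4 in knockout replicates 1, 2 and 3, against 26.8, 118 and 63.1 in control replicates 1, 2 and 3. It had the same order as Acp5 among the controls, with replicate 1 lowest and replicate 2 highest. The difference was 0.00 with an interval from -0.92 to 0.92 (limma, adjusted p = 1.00), and it was -0.48 without control replicate 1 and 0.41 without control replicate 2. Its second probe set kept that order among the controls, with signals of 49.6, 44.1 and 52.7 in knockout and 20.2, 62.5 and 30.7 in control arrays, and differed by 0.21 ± 0.28 (SE).

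Acp5 and Atp6v0d2 shared their low value on control replicate 1 with the markers of macrophages, the lineage from which osteoclasts form. All 12 tested macrophage markers had their lowest level on control replicate 1, against 19.0% of all tested genes (2074 of 10916). The highest level lay on control replicate 2, as in Acp5 and Atp6v0d2, for 5 of the 12 (41.7%), against 20.4% of all tested genes. Between the groups 5 of the 12 were higher in knockout and 7 lower, with a median of -0.07. The lysozyme gene Lyz2 had the largest difference above 0, at 0.58 ± 0.50, and the lowest difference of the list was -0.59 (SE). Csf1r, the receptor for the growth factor CSF1 on these cells, differed by -0.10 ± 0.55 (SE). Its signals were 2272, 1973 and 1863 in knockout replicates 1, 2 and 3, against 784, 3250 and 2952 in control replicates 1, 2 and 3. The centred mean of the macrophage list was 0.26, 0.08 and -0.37 on knockout arrays, against -1.30, 0.67 and 0.66 on control replicates 1, 2 and 3. Mmp9 and the brightest Nfatc1 probe set had their lowest log2 level on control replicate 1 as well, which makes 4 of the 7 tested members (57.1%). Without that array Mmp9 differed by 1.39 and Nfatc1 by 0.24. The part of macrophage RNA in these members' levels was not tested.

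**Figure D3:**
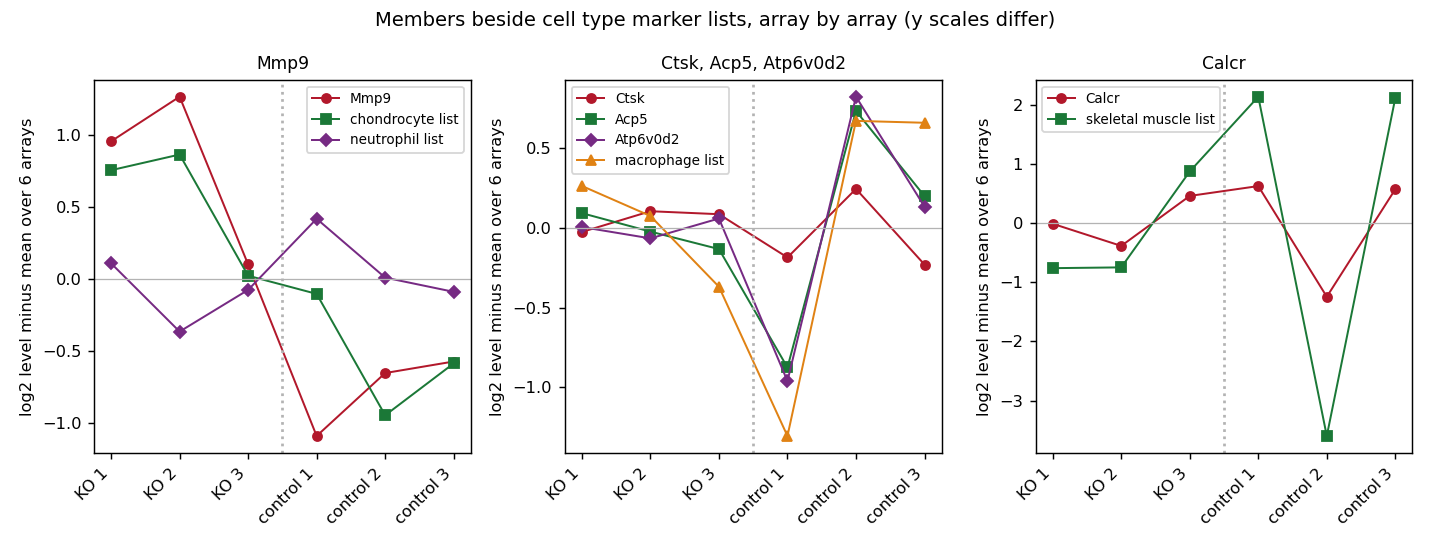
Log2 level minus the mean over the 6 arrays (y axis, with a different scale in each panel) of osteoclast genes beside the mean of a marker list's tested genes, for knockout (KO) replicates 1 to 3 and control replicates 1 to 3, divided by a dotted line. Mmp9 is plotted with the chondrocyte and neutrophil lists, Ctsk, Acp5 and Atp6v0d2 with the macrophage list, and Calcr with the skeletal muscle list; Acp5, Atp6v0d2 and the macrophage list share their low point at control replicate 1, and Calcr and muscle at control replicate 2.

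Promoter windows are shown for Ctsk and Acp5 because these resorption genes are classical targets of the osteoclast regulators NFATc1, PU.1 and MITF, so that a reader can see which of the searched letters stand at their start sites. Windows of 300 bases from RefSeq tables (build GRCm38.p6), 250 before and 50 after a start site, were read for 5 of the 9 genes, in 8 windows. Mmp9, Itgb3, Nfatc1 and Atp6v0d2 are not shown. Searched on both strands were the NFAT core GGAAA, the AP-1 site TGANTCA, the PU.1 core GAGGAA, the MITF M-box TCATGTG and GGTCA, a single arm of an estrogen response element. Among all 32851 windows 61.3% held the NFAT core, 7.81% the AP-1 site, 28.3% the PU.1 core, 3.77% the M-box and 40.5% the GGTCA arm.

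Capitals mark these letters, read on either strand, in the Ctsk window chr3:95498960-95499259 (plus strand) and in 1 of 3 Acp5 windows, chr9:22130549-22130848 (minus strand), the 1 of the 8 windows with an M-box.
Ctsk: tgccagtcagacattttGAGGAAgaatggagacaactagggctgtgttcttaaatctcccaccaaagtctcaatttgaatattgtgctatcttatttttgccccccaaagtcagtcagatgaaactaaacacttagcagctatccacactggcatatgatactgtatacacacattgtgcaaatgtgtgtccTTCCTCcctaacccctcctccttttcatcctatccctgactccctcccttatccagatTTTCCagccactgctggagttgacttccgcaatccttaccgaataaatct
Acp5: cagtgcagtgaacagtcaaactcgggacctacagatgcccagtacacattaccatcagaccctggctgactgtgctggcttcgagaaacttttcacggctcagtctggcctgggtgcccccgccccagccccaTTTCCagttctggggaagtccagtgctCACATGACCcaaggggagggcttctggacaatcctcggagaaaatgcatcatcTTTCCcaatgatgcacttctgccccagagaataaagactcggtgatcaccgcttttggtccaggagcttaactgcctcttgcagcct

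The Ctsk window held 2 PU.1 cores and 1 NFAT core, and the Acp5 window held 2 NFAT cores and 1 M-box, which overlaps a GGTCA arm on the same strand. A match describes the letters only. Neither gene had separated groups.

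Among the receptors, Tnfrsf11a, which encodes RANK, was dim on both probe sets. Its brighter probe set had signals of 8.1, 16.6 and 6.1 in knockout replicates 1, 2 and 3, against 24.3, 23.9 and 11.8 in control replicates 1, 2 and 3. The groups overlapped through knockout replicate 2 and control replicate 3. The difference was -0.50 with an interval from -1.03 to 0.02, on the fit of every probe set (limma, adjusted p = 0.484). The other probe set had 12.2, 10.5 and 23.7 in knockout and 12.4, 12.5 and 10.6 in control arrays, and differed by 0.07 ± 0.16 (SE), so the 2 probe sets of this gene did not share a direction.

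Calcr encodes the calcitonin receptor, through which calcitonin stops resorption; outside the osteoclast it marks resting muscle stem cells. Its signals were 36.8, 23.2 and 74.6 in knockout replicates 1, 2 and 3, against 71.0, 6.2 and 54.9 in control replicates 1, 2 and 3. By signal the lowest array was control replicate 2 and the highest was knockout replicate 3. On the log2 level control replicate 2 was also lowest, but the highest was control replicate 1 at 6.37, with knockout replicate 3 at 6.21. The groups overlapped on both scales. The difference was 0.04 with an interval from -1.12 to 1.20 (limma, adjusted p = 0.987), and it was -0.58 without control replicate 2, -0.18 without knockout replicate 3 and 0.36 without control replicate 1. The skeletal muscle list had centred means of -0.76, -0.75 and 0.87 on knockout replicates 1, 2 and 3, against 2.13, -3.60 and 2.11 on the controls, the same arrays being low. The part of muscle RNA in Calcr was not tested.

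Oscar, an immunoglobulin-like receptor of osteoclasts that binds collagen and gives a costimulatory signal, was dim on both probe sets. Its brighter probe set had signals of 7.6, 16.8 and 14.6 in knockout and 10.3, 18.0 and 17.4 in control arrays, and differed by -0.19 ± 0.21 (SE; limma, adjusted p = 0.790, over all probe sets). The second lay below the filter, with signals of 13.8, 3.8 and 3.5 in knockout and 13.6, 21.1 and 4.5 in control arrays. The groups overlapped on both.

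Itgb3 encodes the β3 chain shared by the vitronectin receptor, which anchors the osteoclast to bone, and by the platelet fibrinogen receptor. Its signals were 40.1, 46.4 and 53.7 in knockout replicates 1, 2 and 3, against 56.3, 38.6 and 39.5 in control replicates 1, 2 and 3. The groups overlapped, and the difference was -0.07 with an interval from -0.39 to 0.25 (limma, adjusted p = 0.886). With the deposited scaling it was 0.05, below the median of all genes there. The other probe set read 1.6 to 3.2 on all arrays. Of the megakaryocyte and platelet markers 3 of 8 were above the filter, Pf4, which macrophages also make, at 0.06 ± 0.56, Itga2b at 0.09 ± 0.20 (SE) and Gp1bb at 0.04 ± 0.12 (SE).

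Nfatc1, the transcription factor that RANK signalling induces, was read by 5 probe sets that did not move together. The brightest (1428479_at) had signals of 378, 263 and 342 in knockout replicates 1, 2 and 3, against 202, 267 and 205 in control replicates 1, 2 and 3. The signal of control replicate 2 lay above that of knockout replicate 2, so the groups overlapped. The difference was 0.37 with an interval from -0.05 to 0.80 (limma, adjusted p = 0.517), and with 1 array left out it ran from 0.22 to 0.51. The dimmest probe set (1447084_at) had signals of 54.6, 34.7 and 51.9 in knockout, against 24.9, 24.6 and 21.4 in control arrays, which did not overlap, and differed by 0.54 with an interval from 0.18 to 0.90 (limma, adjusted p = 0.309, over all probe sets). The other 3 probe sets differed by 0.14, -0.03 and -0.19, each within its SE of 0.19 to 0.26, so no single value stands for this gene. The mean of all 5 gave 0.17.

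**Figure D4:**
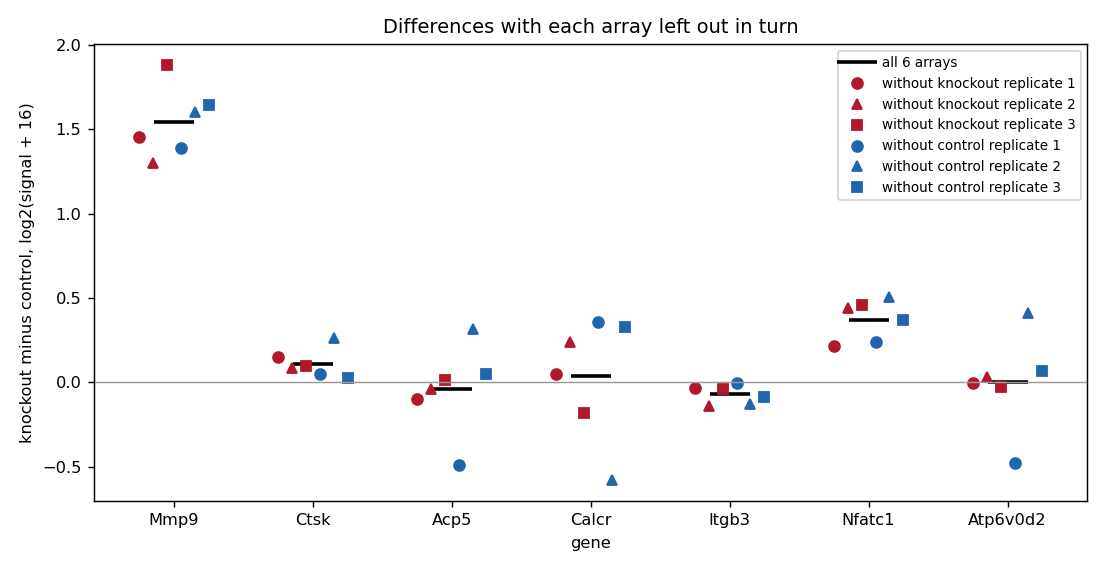
Knockout minus control difference (y axis, log2(signal + 16)) of the 7 tested osteoclast genes with all 6 arrays (black line) and with each knockout (red) or control (blue) array left out in turn. Mmp9 stays between 1.30 and 1.88, Nfatc1 and Ctsk stay above 0 and Itgb3 below it, and Acp5, Calcr and Atp6v0d2 have values on both sides of 0.

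The other genes of the osteoclast programme had differences on both sides of 0 between knockout and control arrays. Over 5 lists (differentiation and fusion, acid secretion, adhesion, matrix proteases and inhibitors of osteoclast formation) 64 of 73 genes were tested: 33 were higher, 31 were lower and 0 passed by limma, with a median of 0.01, against -0.01 for all tested genes. An unadjusted p under 0.05 was reached by 4 of the 64, against 10.5% of all tested genes, and 3 higher and 2 lower genes had values that did not overlap, against 9.23% and 7.76% of all tested genes. Across arrays some of these genes shared low values with the macrophage markers: 13 of 18 differentiation and fusion genes (72.2%) and 12 of 18 acid secretion genes (66.7%) were lowest on control replicate 1, against 19.0% of all tested genes. Csf1r stands on both the differentiation and fusion list and the macrophage list, and is counted in both. Of the acid secretion genes 11 (61.1%) were highest on control replicate 2, against 20.4% of all tested genes. The part of macrophage RNA in these lists was not tested.

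The median over 18 genes of differentiation and fusion was 0.08, with 11 above and 7 below 0. Trem2, a receptor of the macrophage and osteoclast lineage, had signals of 52.0, 42.8 and 34.7 in knockout, against 7.6, 36.2 and 6.8 in control arrays, and differed by 0.85 ± 0.36 (SE; limma, adjusted p = 0.472). Relb, a subunit of the alternative NF-κB pathway that RANK uses, differed by 0.57 ± 0.26, and Tec, a kinase of costimulatory signalling, by 0.30 ± 0.14 (SE). The fusion receptors Dcstamp and Ocstamp lay below the level filter.

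The 18 acid secretion genes split into 5 above and 13 below 0 around a median of -0.07. Ostm1, the partner of the chloride channel ClC-7, lay at -0.34 ± 0.11 (SE, limma, adjusted p = 0.377). Its log2 levels did not overlap, but its signals did. Atp6ap1 lay at -0.24 ± 0.11 and Tcirg1, the a3 subunit of the osteoclast proton pump, at 0.26 ± 0.14 (SE). Adhesion genes split evenly, 5 above and 5 below 0, and their median was -0.01. Gsn, the actin-severing protein gelsolin, lay at -0.14 ± 0.07 with log2 levels that did not overlap, Wipf1 at -0.25 ± 0.14 and Itgb5 at 0.27 ± 0.15 (SE). The signals of Gsn overlapped.

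Matrix proteases other than the members had 8 of 10 tested genes above 0 and a median of 0.20, and 0 passed. Ctsz, a lysosomal cathepsin, lay at 0.21 ± 0.07 with separated groups (SE; limma, adjusted p = 0.410), Ctsd at 0.24 ± 0.12 and the collagenase Mmp13 at 0.20 ± 0.10 (SE). The Mmp9 difference of 1.55 lay outside their range of -0.11 to 0.36. Genes listed as inhibitors of osteoclast formation split into 4 above and 4 below 0, with a median of -0.02. The lowest was Rcan2, which encodes a calcineurin inhibitor, at -1.05 ± 0.39 (SE; limma, adjusted p = 0.418). A role of Rcan2 in osteoclast formation was not tested here. Its signals were 224, 214 and 343 in knockout, against 693, 232 and 718 in control arrays, so control replicate 2, the array with little muscle RNA, lay among the knockout arrays. The part of muscle RNA in Rcan2 was not tested.

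Of the cytokines by which bone cells steer osteoclasts, 4 of 10 lay above 0, and the median was -0.12. Tnfsf11, which encodes RANKL, differed by 0.78 ± 0.13 with separated groups (SE; limma, adjusted p = 0.183). Its signals were 266, 202 and 336 in knockout replicates 1, 2 and 3, against 148, 140 and 109 in control replicates 1, 2 and 3. Sema3a, a repressor of osteoclast formation, lay at 0.33 ± 0.16 and Csf1 at 0.25 ± 0.14 (SE; limma, adjusted p = 0.511 and 0.564). Their log2 levels did not overlap, Sema3a only narrowly, with knockout replicate 2 at 6.981 and control replicate 2 at 6.980. The signals of Csf1 overlapped. With Tnfsf11, 3 of the 10 cytokine genes (30.0%) had separated, higher log2 levels, against 9.23% of all tested genes.

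**Figure D5:**
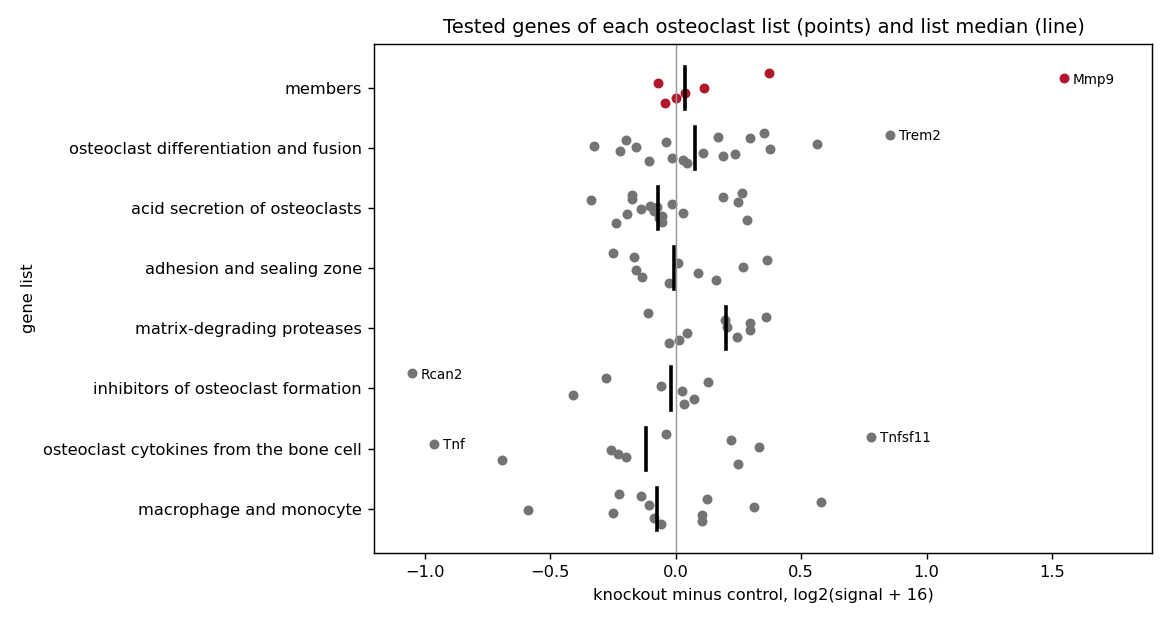
Knockout minus control difference (x axis, log2(signal + 16)) of each tested gene (points) in the osteoclast gene lists and the macrophage list (rows), with the list's median as a black line and genes beyond 0.7 in either direction named. Mmp9 lies apart from the other members near 1.5, and the list medians lie between -0.12 and 0.20.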

How the data were processed

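Total RNA of sorted calvarial osteocytes was labelled with biotin and read on Affymetrix GeneChip arrays, 3 per genotype. The authors deposited an intensity per probe set and array; the submitters' processing notes name GCOS, without saying which background correction, probe summary or scaling target was used. The number of arrays limits the precision.

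Leaving out 64 controls from 45101 probe sets, 34945 had 1 gene, 932 several and 9160 are unnamed here; 34741 took their current symbol from the RefSeq table. Log2(signal + 16) was quantile normalised because array medians differed by 0.36, above a limit of 0.25. The brightest probe set stood for its gene, the lowest 40% of 18193 genes (under 5.37) were left out, and 10916 were tested. A second fit took every probe set, with 27023 above its own level filter (4.83). Differences are knockout minus control from limma 3.58.1 (R 4.3.3, lmFit and eBayes with a trend, 2-sided, Benjamini-Hochberg at 0.05, intervals of 95%). With 3 arrays against 3 an exact permutation test of a single value cannot go below p = 0.1, so none is given. The fit was tested on simulated data with known differences.

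The members and gene lists were chosen with earlier results of these data known. Named were all members, up to the 3 smallest p of each of 6 osteoclast lists, up to the 2 highest of each cell type list, Esr1, and the 5 nearest genes of Mmp9 and Ctsk. Ngp, Mmp8, Gp1bb, Dcstamp and Ocstamp were added by name once their values had been seen. B cell, T cell, erythroid, pericyte and osteoblast lists were not set beside any member. In that order 1, 1, 2, 10 and 9 of their genes were tested, with medians of 0.07, 0.06, -0.17, -0.40 and -0.08. The 11 tested osteocyte genes had a median of -0.09. Alternatives were another scaling, pseudocount, level filter, probe set rule, variance model, the replicate block and each array left out.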

Additional observations from a re-analysis of the deposited data

How the results depend on the processing

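Of 108 values of the 7 tested members under the alternatives, 92 kept their direction and side of the threshold, 15 changed sign and 1, Mmp9 with the deposited scaling, passed. Itgb3 has no value with all probe sets of a gene averaged, since it then lay below the filter. Mmp9 was higher in knockout in every alternative run, between 1.30 and 1.88. Against 0 calls in the analysis reported, the deposited scaling called 30 genes higher, 1 of them a member, and 2 member probe sets, both of Mmp9; median centring called 1 gene and 1 member probe set higher. With 1 array left out, the calls ran from 0 to 86 genes higher, from 0 to 205 genes lower and from 0 to 2 member probe sets higher, the highest counts all coming without control replicate 2; the cause was not tested. Acp5 was 0.11 with the deposited scaling, 0.014 with median centring and 0.044 with array weights, and ran from -0.49 to 0.32 with 1 array left out. Itgb3 was 0.052 with the deposited scaling. Calcr was -0.035 with a pseudocount of 64 and -0.18 with array weights, and ran from -0.58 to 0.36 with 1 array left out. Atp6v0d2 was -0.042 with a pseudocount of 64 and ran from -0.48 to 0.41, and its second probe set ran from -0.091 to 0.53. Of the further Nfatc1 probe sets, 1425761_a_at was 0.10 with the deposited scaling and 0.0019 with median centring and ran from -0.20 to 0.12, 1417621_at ran from -0.062 to 0.28 and 1447085_s_at from -0.40 to 0.067. The second Tnfrsf11a probe set ran from -0.026 to 0.14. With all arrays each of these differences was smaller than its SE; the cause of the sign changes was not tested. Same-numbered arrays had correlations of deviations from the group means of -0.38, 0.10 and -0.04, and other pairs ran from -0.34 to 0.42. With 3 arrays per group these values cannot tell whether same-numbered arrays were prepared together. In the main fit the numbers name arrays only. With the replicate block 0 genes were called in either direction and Mmp9 stayed at 1.55 (limma, adjusted p = 0.539). Signals under 16 made up 38.6% to 46.9% of an array.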
